A study of Mus musculus with 8 samples.

Results

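The 6 genes described here encode factors that carry or assist the elongation step of protein synthesis, or bind the mRNA while it is translated, and are known in mammals for mRNAs of the TOP class. They are Eef1a1, Eef2, Eef1b2, Eef1g, Tpt1 and Pabpc1, and they were taken by Ensembl identifier from the 28785 genes listed in any of 4 RNA-seq libraries. All 6 were listed in every library and were among the 4688 genes with a mean of at least 1 RPKM (reads per kilobase of gene, relative to the size of the library) over the 4 libraries. The cells were mouse embryonic fibroblasts, a connective tissue cell type, of genotype TSC2+/+ and strain C57BL/6J in every group. Control cells received no heat shock, and the other cells were held at 42 °C for 1 h and then at 37 °C for 3 h. Each culture was separated into a cytoplasmic supernatant and the pellet left after lysis of nuclei in urea, which is the chromatin fraction. RNA-seq was made from both fractions under both conditions.

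There was 1 library per fraction and condition, so no difference below has a replicate check or a test, and every value describes these libraries. Intervals are exact 95% intervals from read counts. They cover counting error only: without molecular identifiers, reads that are copies of one molecule are counted again. Library totals were 18364642 and 19536459 reads in chromatin and 8292312 and 11131382 reads in cytoplasm (control, then heat shock). The 10 genes that took most reads on average over the libraries held 21.4% and 32.6% of the chromatin reads and 75.2% and 79.3% of the cytoplasmic reads. The RPKM of every other gene depends on these shares, so directions are also given on 3 other scales. The equal-sum scale brings every library to one RPKM sum, the zero-median scale takes the median log2 ratio over all genes compared as 0, and the trimmed scale removes those 10 genes from the library totals. The identity of the cells and the purity of the fractions were not checked against marker genes here, because the files do not pair identifiers with names. RPKM is relative to the library and does not give the amount of RNA per cell. In these bulk libraries, fewer cells that hold an RNA and less of it in each cell cannot be told apart.

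TOP mRNAs start, at the cap, with a C followed by a short uninterrupted tract of pyrimidines. The kinase complex mTORC1 controls their translation, largely through the RNA-binding protein LARP1, and the TSC2 protein is part of the complex that inhibits mTORC1. The class holds the mRNAs of ribosomal proteins and of several translation factors, so that cells can stop or resume the making of the translation machinery as a unit. In stressed cells TOP mRNAs are known to leave polysomes while often remaining intact.

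Eef1a1 (ENSMUSG00000037742) encodes eEF1A, the factor that brings aminoacyl-tRNA to the ribosome. Its RefSeq span on GRCm38.p6 is chr9:78478453-78481724 (3272 bp), while the length implied by the deposited RPKM values is 10703 bp, 3.27 times as long. The next RefSeq gene upstream, the lncRNA LOC115487230, begins 5815 bp away and ends 10709 bp from the 3′ end of Eef1a1, and whether the authors' gene model takes in this region is not given in the sources used here. Eef2 (ENSMUSG00000034994) encodes eEF2, which moves the ribosome along the mRNA, and lies at chr10:81176631-81182509 (5879 bp, 5877 bp in the files). Eef1b2 (ENSMUSG00000025967) encodes the subunit of the eEF1B complex that recharges eEF1A with GTP, at chr1:63176831-63180486 (3656 bp, 3662 bp in the files). Eef1g (ENSMUSG00000071644) encodes the gamma subunit of the same complex, at chr19:8967041-8978180 (11140 bp, 11439 bp in the files). Tpt1 (ENSMUSG00000060126) encodes TCTP, a growth-associated protein that binds elongation factors, at chr14:75845256-75848303 (3048 bp, 3433 bp in the files). Pabpc1 (ENSMUSG00000022283) encodes the main cytoplasmic poly(A)-binding protein, which links the mRNA tail to initiation factors, at chr15:36595658-36609581 (13924 bp, 13313 bp in the files). Except for Eef1a1, the lengths lay within 0.956 and 1.13 times the RefSeq spans. The deposited values are thus scaled by whole genes with introns and not by spliced mRNAs. Whether reads within introns were counted is not given in the sources used here.

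RefSeq promoter sequences of GRCm38.p6 were matched for 4 of the 6 genes and are shown because the tract at the start defines the TOP class. Each line runs from 20 bases before the annotated first base of the transcript to 30 bases into it. Capitals mark a run of at least 5 C or T that opens with C.
Eef1a1: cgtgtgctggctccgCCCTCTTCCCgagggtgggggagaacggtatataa
Eef2: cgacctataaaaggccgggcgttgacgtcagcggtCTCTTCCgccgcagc
Eef1b2: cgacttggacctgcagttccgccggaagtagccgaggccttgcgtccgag
Tpt1: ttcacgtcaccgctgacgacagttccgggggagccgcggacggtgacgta
The printed bases of Eef1a1 lie at chr9:78481695-78481744 on the minus strand, those of Eef2 at chr10:81176611-81176660, those of Eef1b2 at chr1:63176811-63176860 and those of Tpt1 at chr14:75845236-75845285, the last 3 on the plus strand. In Eef1a1 a run of 10 pyrimidines began 5 bases before the annotated start, upstream of the tatataa that ends the printed line. Because it lies upstream of this TATA-like sequence, the run is not taken here as the tract at the cap of the mRNA. Where the cap lies was not tested. In Eef2 a run of 7 began at base 16 of the transcript. The first such run began at base 33 in Eef1b2 (5 bases) and at base 41 in Tpt1 (6 bases), beyond the printed sequence. A C at the annotated first base with at least 4 pyrimidines after it, searched on the transcript's strand, was found in 0 of the 4, and in 2.51% of all 32851 promoters of the table. A run of at least 5 that opens with C within 10 bases of the start was found in 1 of the 4, and in 29.0% of all promoters. That gene was Eef1a1, by the run upstream of tatataa, so the count does not show a tract at the cap. An annotated start is not a mapped cap site, and the deposited values hold no position within a gene.

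In control cytoplasm the 2 elongation factors that act on the ribosome itself had the highest RPKM of the 6 genes. Eef1a1 was at 62.8 RPKM (61.1 to 64.4, 5570 reads) and Eef2 at 61.8 (59.6 to 64.1, 3013 reads), and their intervals overlapped. Tpt1 (31.3 RPKM), Eef1b2 (29.6) and Pabpc1 (29.2) followed with overlapping intervals. Eef1g was lowest at 8.59 RPKM (8.01 to 9.20), 7.30-fold below Eef1a1. These values divide reads by the lengths of whole genes, and by reads alone the order differed. Pabpc1 (3219 reads) lay above Eef2 (3013), and Eef1g (815) lay near Tpt1 (891) and Eef1b2 (900). Lengths of spliced mRNAs were not used, so the order is not one of mRNA abundance. Per RefSeq span in place of the deposited length, Eef1a1 came to 205 RPKM against 61.8 for Eef2, so the near-equality of these genes rests on the long gene model of Eef1a1, while the order of the 6 genes in control cytoplasm was the same with both lengths. By RPKM all 6 ranked high in that library, each above at least 90.0% of the genes kept.

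**Figure D1:**
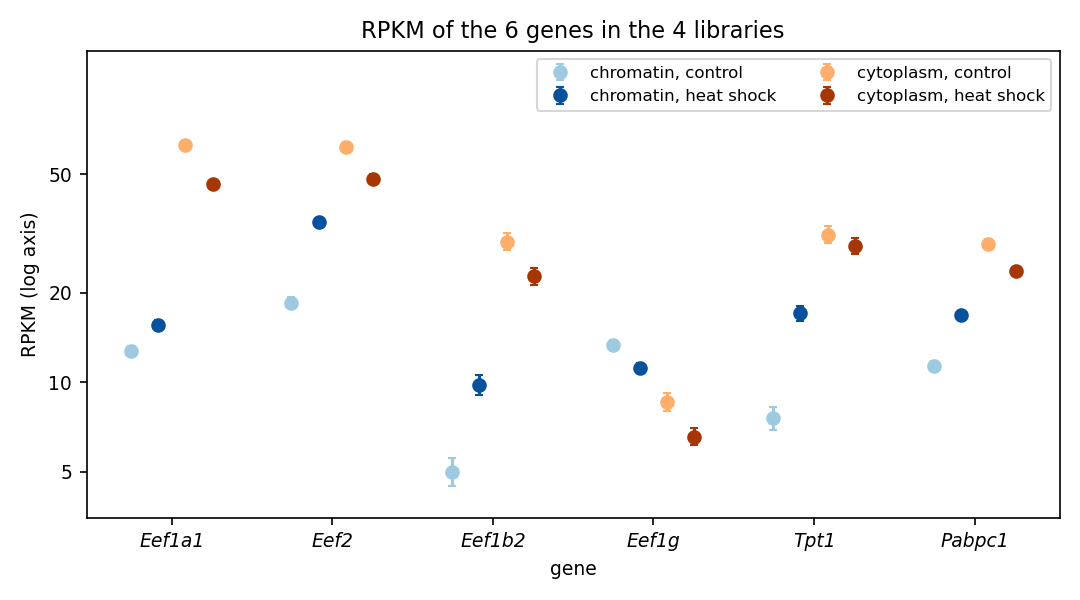
RPKM (log axis) of each of the 6 genes in the 4 libraries, 1 point per library with its exact 95% interval from reads. For 5 genes both cytoplasmic points lie above both chromatin points, and for Eef1g (8.59 and 6.57 RPKM in cytoplasm, 13.4 and 11.2 in chromatin) they lie below. The equal-sum scale turns this for Pabpc1 in both conditions and for Eef2, Eef1b2 and Tpt1 after heat shock, the trimmed scale turns it for Eef1g in both, and the zero-median scale for Eef1g after heat shock.

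In control chromatin the order was different. Eef2 was highest at 18.5 RPKM (17.7 to 19.4). Eef1g (13.4 RPKM, 12.9 to 13.9) and Eef1a1 (12.8, 12.3 to 13.3) came next with overlapping intervals, then Pabpc1 at 11.4 (11.0 to 11.8). Tpt1 was at 7.57 RPKM (6.90 to 8.28) and Eef1b2 lowest at 4.98 (4.46 to 5.54). Eef1g, last in cytoplasm, was thus second in chromatin. Per RefSeq span, Eef1a1 was first here too, at 41.7 RPKM.

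The heat shock comparison in chromatin asked how the RNA of these genes on chromatin differed after heat shock and recovery. On the deposited scale 5 of the 6 genes were higher after heat shock and Eef1g was lower, but on the equal-sum scale Eef1a1 and Pabpc1 were also lower. Tpt1 went from 7.57 to 17.1 RPKM (477 and 1144 reads), a 2.25-fold difference (2.02 to 2.51) and the largest of the 6. Eef1b2 went from 4.98 to 9.80 RPKM, or 1.97-fold (1.72 to 2.25). Eef2 went from 18.5 to 34.5 RPKM, or 1.86-fold (1.76 to 1.97). The interval of Eef1b2 overlapped those of Tpt1 and Eef2, which did not overlap each other.

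Pabpc1 was 1.48-fold higher (1.41 to 1.55), from 11.4 to 16.8 RPKM, and Eef1a1 1.22-fold (1.16 to 1.29), from 12.8 to 15.6 RPKM. Eef1g was at 13.4 RPKM in control chromatin and 11.2 after heat shock, a ratio of 0.836 (0.792 to 0.883). It was the one gene of the 6 below 1 on the deposited scale. Its log2 ratio was -0.86 on the equal-sum and -0.35 on the zero-median scale. On the trimmed scale it was only -0.034, close to no difference. Eef2, Eef1b2 and Tpt1 were above 0 on the log2 scale on all 4 scales.

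On the scale of log2(RPKM + 1), used to set genes side by side, the median of the 6 was 0.69 against 0.12 over the 4635 genes compared. Of these genes, 10.4% were at least 2-fold higher and 4.66% at least 2-fold lower. Tpt1 alone of the 6 passed 2-fold on the deposited scale, at 1.08, above 90.8% of all genes. On the equal-sum (0.51) and zero-median (0.96) scales it did not pass and the count was 0, and on the trimmed scale Tpt1 (1.31), Eef2 (1.09) and Eef1b2 (1.08) passed. Eef2 (0.86) and Eef1b2 (0.85) lay above 87.2% and 86.8%, Pabpc1 (0.52) above 75.5% and Eef1a1 (0.27) above 60.9%. Eef1g (-0.24) lay above 26.0%. The 6 genes thus spread over the range that holds 64.9% of all genes. Their median was 0.087 on the equal-sum, 0.57 on the zero-median and 0.91 on the trimmed scale, against medians over all genes of -0.38, 0 and 0.30.

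**Figure D2:**
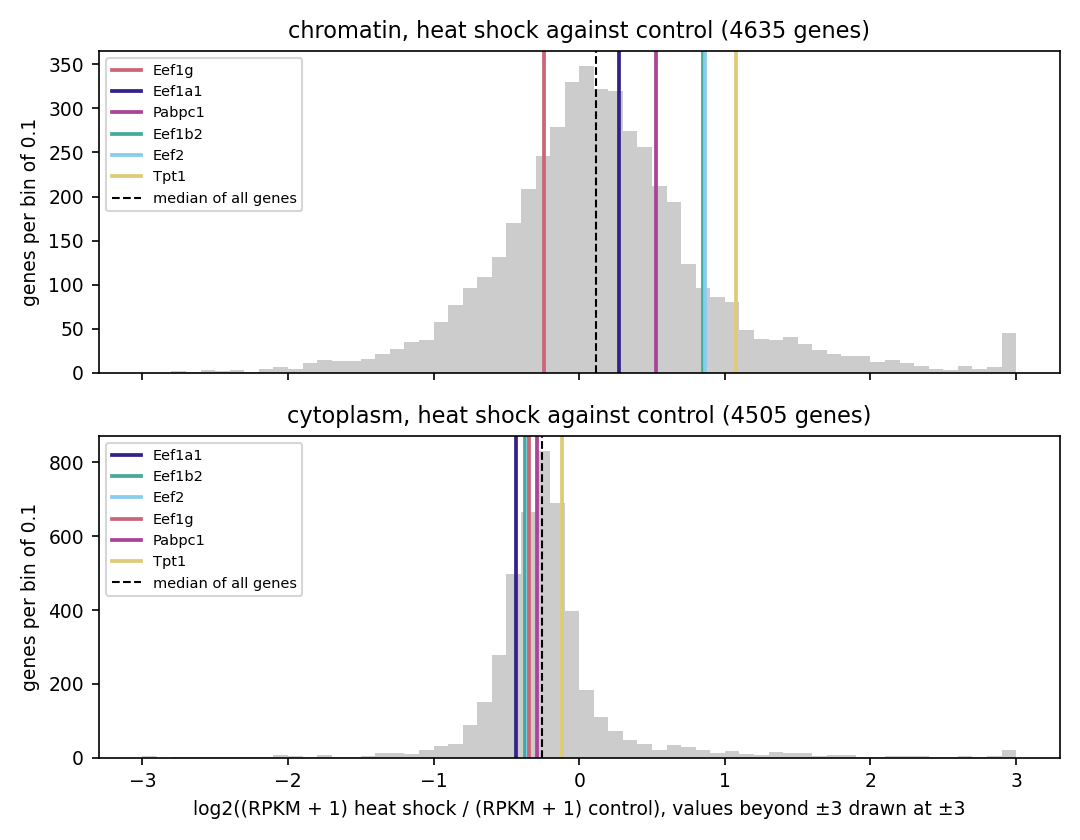
Histograms of log2((RPKM + 1) after heat shock/(RPKM + 1) in control) over all genes compared, for chromatin above (4635 genes) and cytoplasm below (4505 genes), with a coloured line for each of the 6 genes and a dashed line at the median of all genes. The 6 lines are spread from -0.24 to 1.08 in chromatin and lie between -0.43 and -0.12 in cytoplasm on the deposited scale. The equal-sum scale puts Eef1a1 and Pabpc1 below 0 in chromatin, and the zero-median and trimmed scales put Tpt1 above 0 in cytoplasm.

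Differences between the genes do not depend on how libraries are scaled, because both genes of a pair are read in the same libraries. In chromatin the heat shock ratio differed beyond counting error in 13 of 15 pairs of the 6 genes. The exceptions were Eef1b2 with Eef2 and Eef1b2 with Tpt1. The ratio of Tpt1 was 2.70 times that of Eef1g (2.39 to 3.05), and that of Eef1b2 was 2.35 times that of Eef1g (2.04 to 2.72), although Eef1b2 and Eef1g encode subunits of one complex. The ratio of Eef2 was 1.52 times that of Eef1a1 (1.41 to 1.64). These intervals compare reads of the libraries and not cultures.

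The 3 genes with the highest ratios in chromatin were the 3 with a small nucleolar RNA inside their RefSeq span. Snord37 lies in Eef2 at chr10:81178961-81179013, Snora31 in Tpt1 at chr14:75847923-75848034, and Snora41 and the snoRNA Gm26457 in Eef1b2 at chr1:63179023-63179135 and chr1:63178677-63178754. No such gene lies within the RefSeq spans of Eef1a1, Eef1g or Pabpc1. The lengths in the files were 3433 to 5877 bp for the first set and 10703 to 13313 bp for the second. The set with snoRNAs was thus also the set of shorter genes by deposited length. By RefSeq span, Eef1a1 (3272 bp, chromatin ratio 1.22) was shorter than Eef1b2 (3656 bp, 1.97) and Eef2 (5879 bp, 1.86). The part of length in the ratios was not tested. Whether reads of the snoRNAs were counted in the host genes is not given in the sources used here, and their part in the ratios was not tested. Over all genes of 3433 to 5877 bp the median log2 ratio was 0.21 (432 genes), and over those of 10703 to 13313 bp it was 0.10 (289 genes). RefSeq also names 7 pseudogenes of Tpt1, 2 of Eef1a1 and 1 of Eef2, and 0 of Eef1b2, Eef1g and Pabpc1. Only pseudogenes named after their gene were counted. Copies under other symbols were not looked for, so a count of 0 does not mean that a gene has no copies. How reads that match a gene and its copy were counted is not given, so the levels of Tpt1, Eef1a1 and Eef2 are uncertain. Whether this also holds for Eef1b2, Eef1g and Pabpc1 was not tested.

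In cytoplasm the 6 log2 ratios lay between -0.43 and -0.12, a range that held 50.3% of all genes compared. On the deposited scale all 6 were lower after heat shock, but Tpt1 was higher on the zero-median and trimmed scales. Eef1a1 went from 62.8 to 46.2 RPKM (5570 and 5503 reads), a ratio of 0.736 (0.709 to 0.764). Eef2 went from 61.8 to 48.3 RPKM, a ratio of 0.781 (0.743 to 0.821). Eef1b2 and Eef1g, which encode subunits of eEF1B, had nearly the same ratio. It was 0.766 (0.699 to 0.841) for Eef1b2, from 29.6 to 22.7 RPKM. For Eef1g it was 0.764 (0.693 to 0.843), from 8.59 to 6.57 RPKM. Pabpc1 went from 29.2 to 23.6 RPKM, a ratio of 0.810 (0.772 to 0.850). Tpt1 was nearest to 1, from 31.3 to 28.7 RPKM, at 0.918 (0.840 to 1.00), and the upper end of its interval reached 1.

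None of the 6 passed 2-fold in cytoplasm, where 3.4% of 4505 genes were at least 2-fold higher and 2.44% at least 2-fold lower. The median of the 6 was -0.35 on the log2 scale against -0.25 over all genes, and 1 of the 6 lay above the median of all genes. Eef1a1 (-0.43) lay above 22.2% of all genes and Tpt1 (-0.12) above 72.4%. The equal-sum scale gave a median of -0.54 for the 6 and -0.29 for all genes. The trimmed scale gave -0.11 and -0.22 and plain RPKM ratios without a pseudocount -0.37 and -0.53, so with these the median of the 6 was above that of all genes. Of 15 pairs, 6 differed beyond counting error, and 5 of these 6 included Tpt1. The exception was Eef1a1 with Pabpc1, where the ratio of Pabpc1 was 1.10 times that of Eef1a1 (1.04 to 1.17). The ratio of Tpt1 was 1.25 times that of Eef1a1 (1.13 to 1.37).

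**Figure D3:**
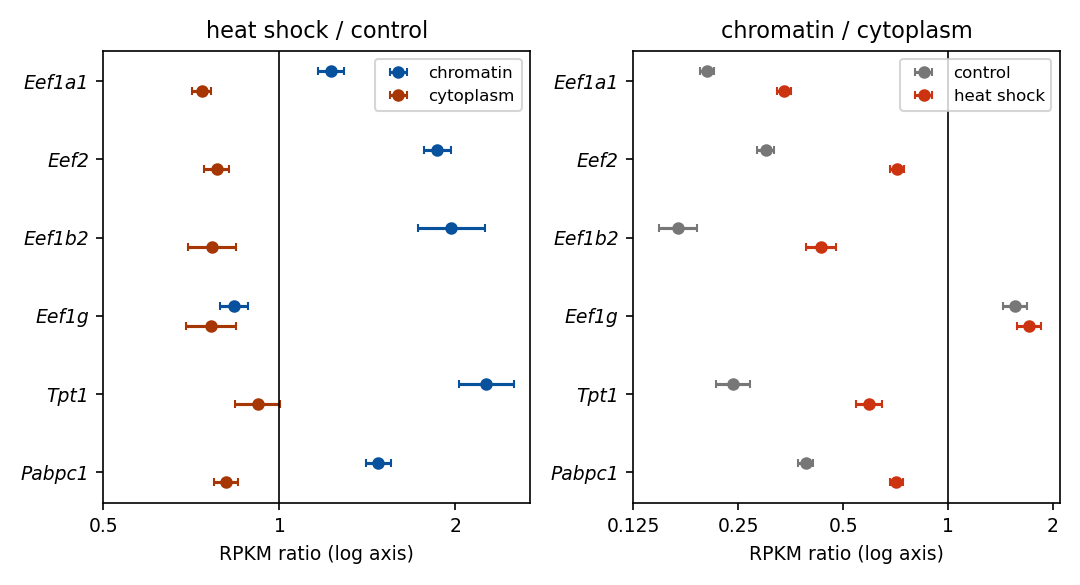
RPKM ratios with exact 95% intervals from reads (log axes) for the 6 genes, after heat shock against control on the left and chromatin against cytoplasm on the right. On the left the cytoplasmic ratios run from 0.736 to 0.918 and the chromatin ratios from 0.836 to 2.25, with Eef1a1 and Pabpc1 below 1 in chromatin on the equal-sum scale and Tpt1 above 1 in cytoplasm on the zero-median and trimmed scales. On the right Eef1g is the one gene above 1 on the deposited scale, in both conditions; the trimmed scale puts it below 1 in both and the zero-median scale after heat shock, while the equal-sum scale puts Pabpc1 above 1 in both and Eef2, Eef1b2 and Tpt1 above 1 after heat shock.

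The heat shock ratio was then set against itself in the other fraction, gene by gene. On the deposited scale the chromatin ratio exceeded the cytoplasmic ratio in all 6 genes, but for Eef1g it was the lower one on the equal-sum and zero-median scales. Most genes also lay this way as deposited, with a median log2 difference of 0.37 over 4473 genes and 1.01 over the 6. The median over all genes was -0.068 on the equal-sum, 0.0070 on the zero-median and 0.50 on the trimmed scale. The quotient of the ratios was 2.57 for Eef1b2 (2.18 to 3.02), 2.46 for Tpt1 (2.13 to 2.83) and 2.38 for Eef2 (2.21 to 2.57). It was 1.82 for Pabpc1 (1.70 to 1.95) and 1.66 for Eef1a1 (1.56 to 1.77). For Eef1g it was 1.09 (0.978 to 1.22), an interval that includes 1. On the scale of RPKM + 1, 3 of the 6 passed 2-fold toward chromatin (Eef1b2, Eef2 and Tpt1), where 16.5% of 4473 genes did and 4.52% passed toward cytoplasm. On the equal-sum and zero-median scales 0 of the 6 passed. This comparison and the ones within each fraction use the same 4 libraries and are no independent evidence of each other.

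Chromatin was next compared with cytoplasm in control cells. On the deposited scale 5 of the 6 genes were lower in chromatin and Eef1g was higher, but Eef1g was lower too on the trimmed scale, and Pabpc1 was higher on the equal-sum scale. Eef1b2 was 5.95-fold lower in chromatin (5.24 to 6.77), Eef1a1 4.92-fold (4.69 to 5.16), Tpt1 4.14-fold (3.70 to 4.63), Eef2 3.34-fold (3.15 to 3.53) and Pabpc1 2.56-fold (2.44 to 2.70). Eef1g was 1.56-fold higher in chromatin (1.44 to 1.68), at 13.4 RPKM against 8.59. These 5 genes passed 2-fold toward cytoplasm, where 11.7% of 4512 genes did, and 32.4% of genes passed toward chromatin. On the equal-sum scale 0 of the 6 passed toward cytoplasm and Eef1g passed toward chromatin (a log2 ratio of 2.14), while the zero-median and trimmed scales gave 5 toward cytoplasm, as deposited. Eef1g lay above 50.1% of all genes in this ratio and the other 5 above 3.79% to 8.80%. All 15 pairs of the 6 genes differed beyond counting error here. The ratio of Eef1g was 9.26 times that of Eef1b2 (7.96 to 10.8) and 3.99 times that of Pabpc1 (3.63 to 4.38), the gene nearest to it.

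After heat shock the chromatin to cytoplasm ratio was higher than in control for each of the 6 genes on the deposited scale. This rise is the quotient of the ratios given above, in which most genes also lay higher on that scale. For Eef1g the ratio was lower on the equal-sum and zero-median scales, and its intervals overlapped between conditions. Eef1a1 was 2.96-fold lower in chromatin (2.83 to 3.09) and Eef1b2 2.32-fold (2.10 to 2.56), and these passed 2-fold toward cytoplasm, as did 6.93% of 4575 genes, while 45.8% passed toward chromatin. Tpt1 was 1.68-fold lower in chromatin (1.55 to 1.83), Pabpc1 1.41-fold (1.35 to 1.47) and Eef2 1.40-fold (1.34 to 1.47). Eef1g was 1.70-fold higher in chromatin (1.57 to 1.84). Its log2 ratio of 0.69 lay above only 39.7% of all genes, whose median was 0.92, and 0 of the 6 lay above that median. On the equal-sum scale 5 of the 6 were higher in chromatin and Eef1a1 was lower, and on the zero-median and trimmed scales all 6 were lower. The count past 2-fold toward cytoplasm was 0 on the equal-sum scale, where Eef1g passed toward chromatin (1.79), and 5 on the zero-median and the trimmed scale. Pabpc1 and Eef2 did not differ beyond counting error (a ratio of 1.00, interval 0.941 to 1.07), and the other 14 of 15 pairs did.

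The make-up of the reads of the 6 genes needs no scaling between libraries. Eef1a1 held 38.7% of these reads in control cytoplasm (37.9 to 39.5) and 36.6% after heat shock (35.9 to 37.4), but 23.0% (22.2 to 23.8) and 20.5% (19.9 to 21.1) in chromatin. Eef1g held 25.7% in control chromatin (24.9 to 26.6) and 15.7% after heat shock (15.1 to 16.2), against 5.66% and 5.56% in cytoplasm. Eef2 went from 18.3% to 24.8% in chromatin and was at 20.9% and 21.0% in cytoplasm. Tpt1 went from 4.37% to 7.18% in chromatin and from 6.18% to 7.31% in cytoplasm. Pabpc1 was at 25.5% and 27.4% in chromatin and 22.3% and 23.3% in cytoplasm. Between conditions the largest difference in share in cytoplasm was that of Eef1a1, 2.03 percentage points, and in chromatin that of Eef1g, 10.1 points. The shares of a library add up to the whole, so one share also falls when other genes rise. In chromatin Eef1g had 2808 reads in control and 2498 after heat shock, while the 6 genes together had 10906 and 15936.

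**Figure D4:**
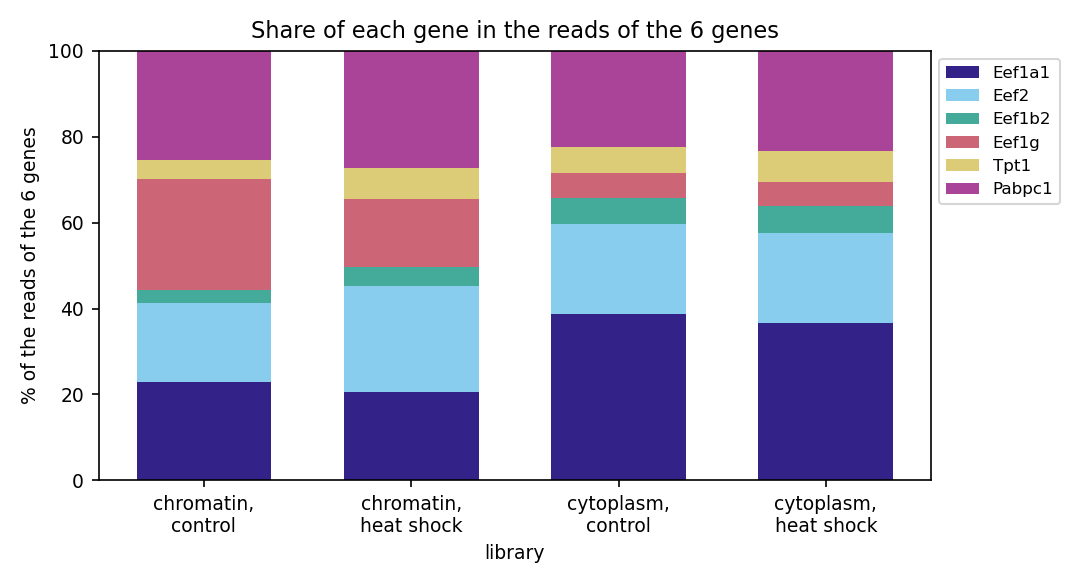
Stacked bars of the share of each gene in the reads of the 6 genes, 1 bar per library (10906, 15936, 14408 and 15024 reads from left to right). The Eef1g share is 25.7% in control chromatin, 15.7% in chromatin after heat shock and 5.66% and 5.56% in cytoplasm.

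The RPKM ratio of Eef1b2 to Eef1g was nearly the same in both cytoplasmic libraries and differed between the chromatin ones. Its size depends on the gene lengths used (3662 and 11439 bp), as the reads in control cytoplasm were 900 and 815. The RPKM of Eef1b2 was 3.45 times that of Eef1g in control cytoplasm (3.13 to 3.80) and 3.46 times after heat shock (3.15 to 3.80). In control chromatin it was 0.373 times (0.332 to 0.418), and after heat shock 0.877 times (0.805 to 0.954). The chromatin value after heat shock lay closer to the cytoplasmic ones than the control value did. For Eef1a1 and Eef2 it lay farther from them. The level of Eef1a1 over that of Eef2 was 1.02 and 0.957 in cytoplasm, 0.689 in control chromatin (0.649 to 0.731) and 0.453 in chromatin after heat shock (0.432 to 0.475). For Eef1a1 over Eef1g and for Tpt1 over Eef2 the chromatin value after heat shock lay closer. Eef1a1 over Eef1g was 0.954 in control chromatin and 1.40 after heat shock, against 7.30 and 7.04 in cytoplasm. Tpt1 over Eef2 was 0.408 and 0.495 in chromatin, against 0.506 and 0.595 in cytoplasm. The 6 genes together held 0.0594% of all reads in control chromatin and 0.0816% after heat shock, and 0.174% and 0.135% in cytoplasm. Outside the 10 highest genes these shares were 0.0755% and 0.121% in chromatin and 0.702% and 0.652% in cytoplasm.

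The pattern over the 4 libraries was compared with that of 3664 genes that had at least 100 reads in each. Likeness was measured as the Euclidean distance between log2 RPKM values centred for each gene, over only 4 libraries that all comparisons share. Each of the 6 was set against the mean pattern of the other 5. Pabpc1 (0.21) and Eef2 (0.25) lay nearest, Tpt1 followed at 0.63, Eef1b2 at 1.01 and Eef1a1 at 1.04, and Eef1g was farthest at 2.28. Of the genes outside the 6, 25.3% lay nearer than Eef1g to the mean of the other 5 and 0.246% lay nearer than Pabpc1. Outside the 6 the most alike to the mean of all 6 was ENSMUSG00000037894, a gene of 2436 bp at a distance of 0.052, with 7.53 and 11.3 RPKM in chromatin and 23.0 and 17.6 in cytoplasm. The second was ENSMUSG00000002102 (12361 bp, distance 0.12), and the next 3 lay at 0.15 to 0.17. The files do not pair these identifiers with names.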

How the data were processed

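Per the submitters' processing notes, cutadapt, STAR and GRCm38 were used (no versions). Per the labels' protocols, RNA fragments of 40 to 60 nt were selected on a gel. The authors deposited 1 RPKM value per gene and library, and genes without a read are not listed. The counter, the annotation release and the handling of strand and of multiply matching reads are not stated there.

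Library totals, whole reads and gene lengths were recovered from the steps of the deposited RPKM values (relative tolerance 2e-14). The recovered reads came to between 98.4% and 99.7% of the totals, since reads that share a factor with the length come out too small. Recovery and the 2-fold rule were tried on simulated data with counting error only, the rule on the zero-median scale. That trial does not cover differences between cultures or the 2-fold rule on the deposited scale. Ratios were log2((RPKM + 1)/(RPKM + 1)), which understates low genes, over genes with a mean of at least 1 RPKM and a read in both libraries. Folds of the 6 genes are plain RPKM ratios with Clopper-Pearson intervals, and quotients of ratios have exact conditional odds ratio intervals. The scripts ran in Python 3.11.15 with scipy 1.17.1, pandas 2.3.3 and numpy 2.4.6.

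The 6 genes and all rules were chosen with earlier results of these data known. All 6 genes are named. The rule also took the 5 genes most alike in pattern, of which 2 are given by identifier. Lists of other genes and of cell type markers, fixed by symbol, and the m6A and input samples (2 each) were not analysed here.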

Additional observations from a re-analysis of the deposited data

How the results depend on the processing

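No paired analysis was possible because each group has 1 library, and for the same reason no library could be left out. The scale of the libraries moved most values. The median log2 ratio of the 6 genes was, on the equal-sum, zero-median and trimmed scales, 0.087, 0.57 and 0.91 for heat shock in chromatin (0.69 as reported), -0.54, -0.094 and -0.11 in cytoplasm (-0.35), -0.22, -2.38 and -3.47 for chromatin against cytoplasm in control (-1.80), and 0.60, -1.52 and -2.29 after heat shock (-0.60). For the chromatin minus cytoplasm difference (1.01) it was 0.62 and 0.64 on the first 2 of these scales. The 2 genes past 2-fold that changed sign were Pabpc1 in the control fractions (0.30) and Eef1b2 in the heat-shocked fractions (0.038), both on the equal-sum scale. Between the scales only the construction differs, and which of them fits the RNA content of the cells was not tested.

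Of the genes past 2-fold in either direction, the higher ones made up, as deposited and on these 3 scales, 69.0%, 26.1%, 57.6% and 79.6% for heat shock in chromatin, 58.2%, 47.9%, 73.6% and 64.0% in cytoplasm, 73.4%, 95.2%, 37.9% and 18.4% for the control fractions, 86.9%, 97.2%, 33.4% and 34.6% for the heat-shocked fractions, and 78.5%, 44.8%, 48.5% and 81.9% for the difference. Counts past 2-fold over all genes moved from 697 in chromatin to 1126 (equal-sum), 1143 (pseudocount 0.1), 1234 (none) and 253 (mean of at least 5 RPKM), and in cytoplasm from 263 to 417 (trimmed), 667, 978 and 131. For the control fractions 1989 became 3503 (equal-sum) and 529 (mean of at least 5), for the heat-shocked ones 2413 became 1173 (zero-median) and 450, and for the difference 939 became 1615, 1797 and 350 with the lower or no pseudocount and the higher minimum. Within the members' range of lengths, chosen after seeing the data, 179 genes passed in chromatin and 56 in cytoplasm, since fewer genes were compared. Low reads limit the ratios of Eef1b2 and Tpt1 in control chromatin (335 and 477 reads) more than those of the other 4 genes.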
